A study of Homo sapiens with 6 samples.

Results

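The mRNAs described here encode the nuclear part of the mitochondrial respiratory chain and ATP synthase. They were taken as every gene whose symbol in the site lists began with NDUF, UQCR, SDH and a letter from A to D, COX and a digit, or ATP5, which gave 91 of 8204 genes with a site in any library. RNA attached to AEG-1, the product of MTDH and a membrane protein of the endoplasmic reticulum, was recovered from the AEG-1-14 line, derived from HepG3 (labelled hepatoblastoma), in which AEG-1 tagged C-terminally with HA is stably expressed. All libraries came from this same line and from the same anti-HA precipitation, so the controls also express the tagged protein. There were 2 HITS-CLIP AEG1 libraries (UV light at 254 nm) with 2 HITS-CLIP negative controls, and 1 PAR-CLIP AEG1 library (365 nm) with 1 PAR-CLIP negative control, and no control received UV light. Each library is a list of called sites on 1 RefSeq mRNA per gene, with a start, an end and a log2 score by the authors, and the depth of reads behind it is unknown. No label ties the paired HITS-CLIP libraries to independent cultures, and their spread may be technical only. All 8 hepatocyte markers looked up were found in both HITS-CLIP AEG1 replicates and in PAR-CLIP AEG1 (3 of the 8 also had a control site), as was LYZ alone among 9 markers of other cell types.

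The respiratory chain passes electrons from NADH (complex I) and succinate (complex II) through complexes III and IV to oxygen and pumps protons across the inner mitochondrial membrane, and ATP synthase (complex V) uses the return flow of protons to make ATP. A few subunits are encoded in mitochondrial DNA. All others are made from nuclear genes by cytosolic ribosomes and imported into mitochondria, many as small proteins from short mRNAs, so they do not pass through the endoplasmic reticulum on their normal route.

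By their known functions, 76 of the 91 genes encode subunits of complexes I to V and 12 encode assembly factors. NDUFC2-KCTD14 and ATP5J2-PTCD1 are readthrough transcripts. COX4NB, now named EMC8, encodes a subunit of the ER membrane complex and not a respiratory chain protein, and was taken in by its old symbol alone. It had 4 PAR-CLIP AEG1 sites and none in any other library. NDUFA4, now COXFA4, is counted with complex IV, where its protein is now placed. Older ATP5 names are kept as the lists give them, for example ATP5A1 for ATP5F1A and ATP5B for ATP5F1B.

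Every one of the 91 mRNAs had a PAR-CLIP AEG1 site, against 97.6% of all genes. Both sets hold only genes with a site in some library, so these shares are largely built in. A HITS-CLIP AEG1 or control site was found on 26 of the 91, and the others entered by PAR-CLIP AEG1 alone. A HITS-CLIP AEG1 site in either replicate was found on 24 (26.4%), against 27.3% of all genes. A control site was found on 2, against 1.76% of all genes. The libraries differed in size, with 60085 sites in all in PAR-CLIP AEG1 and 6378 and 5651 in HITS-CLIP AEG1. The HITS-CLIP controls had 60 and 90 sites in all and the PAR-CLIP control 121. HITS-CLIP AEG1 replicate 1 held 30 sites on 21 of these genes and replicate 2 held 19 sites on 14 genes. The HITS-CLIP controls held 1 site, on NDUFV1, and none. PAR-CLIP AEG1 held 373 sites, against 1 in its control, on COX6B1. Both AEG1 libraries of HITS-CLIP lay above both controls in number of sites on these mRNAs, as they did in sites over all genes.

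The HITS-CLIP AEG1 libraries averaged 24.5 ± 7.78 sites on these mRNAs and the controls 0.5 ± 0.707 (SD, n = 2 each). The two-sided exact permutation test gave p = 0.333, the smallest that 2 against 2 libraries allow. PAR-CLIP had 1 library a side and no test. As a share of all sites in a library, the respiratory chain took 0.470% (exact 95% binomial interval 0.318 to 0.671, counting error only, as for all such intervals here) and 0.336% (0.203 to 0.525) in HITS-CLIP AEG1, and 1.67% (0.0422 to 8.94) in the first control. The second control had 0 of 90 sites, which allows a share of up to 3.33% by the limit of 3 counts and 4.02% by the exact interval. PAR-CLIP AEG1 gave 0.621% (0.560 to 0.687) and its control 0.826% (0.0209 to 4.52). The intervals of the controls contain those of the AEG1 libraries, so a difference in share was not detectable with so few control sites.

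Both control sites lay inside a PAR-CLIP AEG1 site of the same mRNA. On NDUFV1, the complex I subunit that binds NADH, the control site was 19 nt wide (nt 378 to 396) with a score of 4.50, and neither HITS-CLIP AEG1 library had a site on this mRNA. The overlapping PAR-CLIP AEG1 site ran from nt 366 to 479 with a score of 6.17. On COX6B1, a complex IV subunit facing the intermembrane space, the PAR-CLIP control site ran from nt 251 to 302 with a score of 4.08. The single PAR-CLIP AEG1 site there, from nt 102 to 540, had a score of 9.33. Of all genes, 1.76% had a site in any control, against 2 of these 91.

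**Figure D1:**
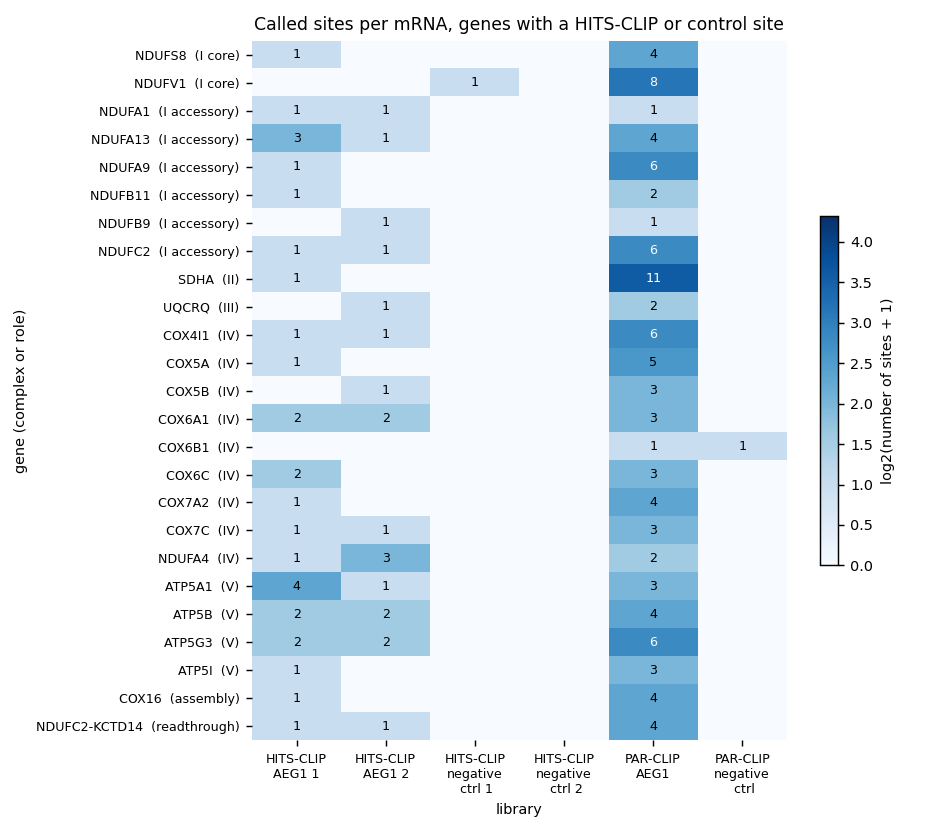
Number of called sites per mRNA (printed in each cell, colour on a log2 scale) in the 6 libraries for 25 respiratory chain genes with a site in a HITS-CLIP AEG1 library or a control; empty cells are 0. The HITS-CLIP AEG1 columns hold 0 to 4 sites per gene and the control columns 2 sites in all.

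HITS-CLIP AEG1 sites were repeated on 11 of the 91 mRNAs, a share of 12.1% (6.19 to 20.6), and 16.1% of all 8204 genes had a site in both replicates. In either replicate the count was 24 genes (26.4%), against 27.3% of all genes. Replicate 1 held 21 of them and replicate 2 held 14, with 10 genes seen in replicate 1 only and 3 in replicate 2 only. For PAR-CLIP AEG1 the background was 97.6% of all genes, so the presence of all 91 there is near that of genes at large. Both values are largely set by taking only genes with a site in some library. Against all 20056 protein-coding genes of RefSeq, with or without a row, the order turned: 6.57% of those had a site in both replicates, and 9.17% of the 109 RefSeq genes that match the prefixes did. The share of members was thus below or above the background according to which genes were counted, and is not a result about the respiratory chain.

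The mRNAs reached less far than most. The furthest PAR-CLIP AEG1 end, which is not an mRNA length but bounds it from below, had a median of 708 nt here and 2053 nt over all genes, and 65 members ended within 1000 nt. Of those 65, 7 (10.8%, interval 4.44 to 20.9) had a site in both HITS-CLIP AEG1 libraries, and 10.5% of the 1640 genes that ended within 1000 nt did. Among genes of like reach the shares in both were thus nearly equal. In either library the counts were 17 of the 65 (26.2%) and 293 of the 1640 (17.9%), a difference that was not tested.

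By complex, complex IV had the highest share. Over all genes the shares were 16.1% in both HITS-CLIP AEG1 libraries and 27.3% in either. Complex IV, cytochrome c oxidase, had 4 of 11 subunits in both HITS-CLIP AEG1 libraries (36.4%, interval 10.9 to 69.2) and 8 of 11 in either. Complex V had 3 of 15 in both (interval 4.33 to 48.1%) and 4 in either, and complex I 3 of 37 (8.11%, 1.70 to 21.9) and 8 in either. Complexes II and III had none of 4 and none of 9 subunits in both, and 1 gene each in either. The 12 assembly factors had none in both (upper limit 26.5%) and 1, COX16, in either. These intervals overlap and the differences between complexes were not tested.

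**Figure D2:**
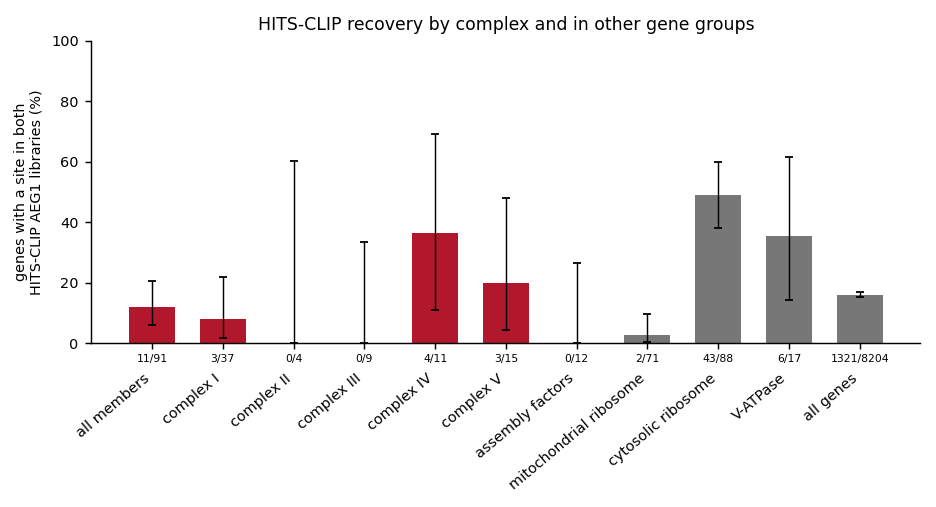
Share of genes (%) with a site in both HITS-CLIP AEG1 libraries, for respiratory chain genes in red and other gene groups in grey, with the counts under each bar and exact 95% binomial intervals as lines. Complex IV stands highest among the complexes at 36.4%, with an interval (10.9 to 69.2) that holds the values of complex V and of all genes (16.1%). That interval overlaps those of complexes I (1.70 to 21.9), II (0 to 60.2) and III (0 to 33.6).

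In complex I, the sites repeated in HITS-CLIP were on accessory subunits. NDUFA1, a small membrane subunit needed for assembly of the complex, had 1 site in each replicate, at nt 175 to 213 and nt 166 to 219. Its highest scores were 4.38 and 4.46, and PAR-CLIP AEG1 had 1 site with a score of 7.92. NDUFA13, also known as GRIM-19, had 3 sites and 1 site, and the 1 in replicate 2 (nt 320 to 349) lay within a site of replicate 1 (nt 315 to 357). NDUFC2, a membrane arm subunit, had 1 site in each, at nt 711 to 745 and nt 665 to 744. The readthrough NDUFC2-KCTD14 had its sites at nt 680 to 745 and nt 682 to 744. NDUFC2 and the readthrough share sequence, so a fragment may belong to either and the pair is uncertain. Counting it once leaves 10 genes. Unless stated otherwise, the results given here count both, as 2 genes.

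None of the 7 core subunits of complex I, which carry out electron transfer, was found in both HITS-CLIP AEG1 replicates (upper limit 41.0%). Of the 30 accessory subunits, 3 were (interval 2.11 to 26.5%). In either replicate the order turned, with 2 of 7 core and 6 of 30 accessory subunits. The intervals overlap and the difference was not tested, so these counts do not separate core from accessory subunits. NDUFS8, an iron-sulphur subunit, had 1 site in replicate 1 and none in replicate 2. NDUFS1, the largest core subunit, had no HITS-CLIP site although it led the whole set in PAR-CLIP, with 18 sites that covered 1803 nt up to nt 3093. Its PAR-CLIP scores ran between 2.52 and 6.52, the highest for the widest site (nt 1611 to 1919). The accessory subunits NDUFA9 and NDUFB11 had 1 site in replicate 1 alone, and NDUFB9 1 in replicate 2 alone.

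In complex II, SDHA, the flavoprotein that oxidises succinate, had 1 site in HITS-CLIP AEG1 replicate 1 (nt 2026 to 2078), none in replicate 2 and 11 in PAR-CLIP AEG1. SDHC, a membrane anchor, had 10 PAR-CLIP sites, the iron-sulphur subunit SDHB 5 and the second anchor SDHD 4, and none of the 3 had a site elsewhere. In complex III, UQCRQ, a small subunit, had 1 site in replicate 2 (nt 25 to 73) and 2 in PAR-CLIP. The core proteins UQCRC2 and UQCRC1 had 10 and 8 PAR-CLIP sites, and the Rieske iron-sulphur protein UQCRFS1 8, with no HITS-CLIP site on any of them.

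In complex IV, COX6A1 had 2 sites in each HITS-CLIP AEG1 library. The first of each lay near the start of the mRNA, at nt 36 to 88 and nt 31 to 87, and PAR-CLIP AEG1 had a site with the same bounds as replicate 2. The others did not overlap each other, at nt 405 to 441 in replicate 1 and nt 102 to 222 in replicate 2. COX7C had 1 site in each replicate at almost the same bounds, nt 188 to 240 and nt 190 to 238, with scores of 5.02 in both. NDUFA4 had 1 site and 3 sites, with 61 nt shared between the site in replicate 1 (nt 169 to 249) and the second site in replicate 2 (nt 185 to 245). COX4I1, the largest nuclear subunit, had 1 in each, and these shared only 6 nt (nt 590 to 678 and nt 673 to 714).

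The other complex IV subunits with HITS-CLIP sites had them in 1 library. COX6C had 2 sites in replicate 1, COX5A and COX7A2 1 each in replicate 1, and COX5B 1 in replicate 2. COX8A had none in HITS-CLIP and 5 in PAR-CLIP AEG1, where COX4I1 had 6 and COX5A 5.

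In complex V, the mRNAs of the large catalytic head subunits carried repeated sites. ATP5A1, the alpha subunit, had 4 sites and 1 site in HITS-CLIP AEG1, and the replicates met at nt 1350 to 1390 and nt 1352 to 1383. ATP5B, the catalytic beta subunit, had 2 and 2, and met at nt 1185 to 1221 and nt 1165 to 1235. ATP5G3, one of several genes for the membrane ring subunit c, had 2 and 2, and both pairs overlapped, near the start (nt 272 to 309 and nt 270 to 314) and at the far end (nt 2308 to 2342 and nt 2307 to 2338). Its paralogs ATP5G1 and ATP5G2 had no HITS-CLIP site, with 4 PAR-CLIP sites each. No source used here says how reads from paralogs were assigned, so this split is uncertain. ATP5I, the small subunit e, had 1 site in replicate 1. ATP5C1, the central stalk gamma subunit, led the complex in PAR-CLIP with 9 sites and had none in HITS-CLIP, as did ATP5F1, the peripheral stalk subunit b, with 6.

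**Figure D3:**
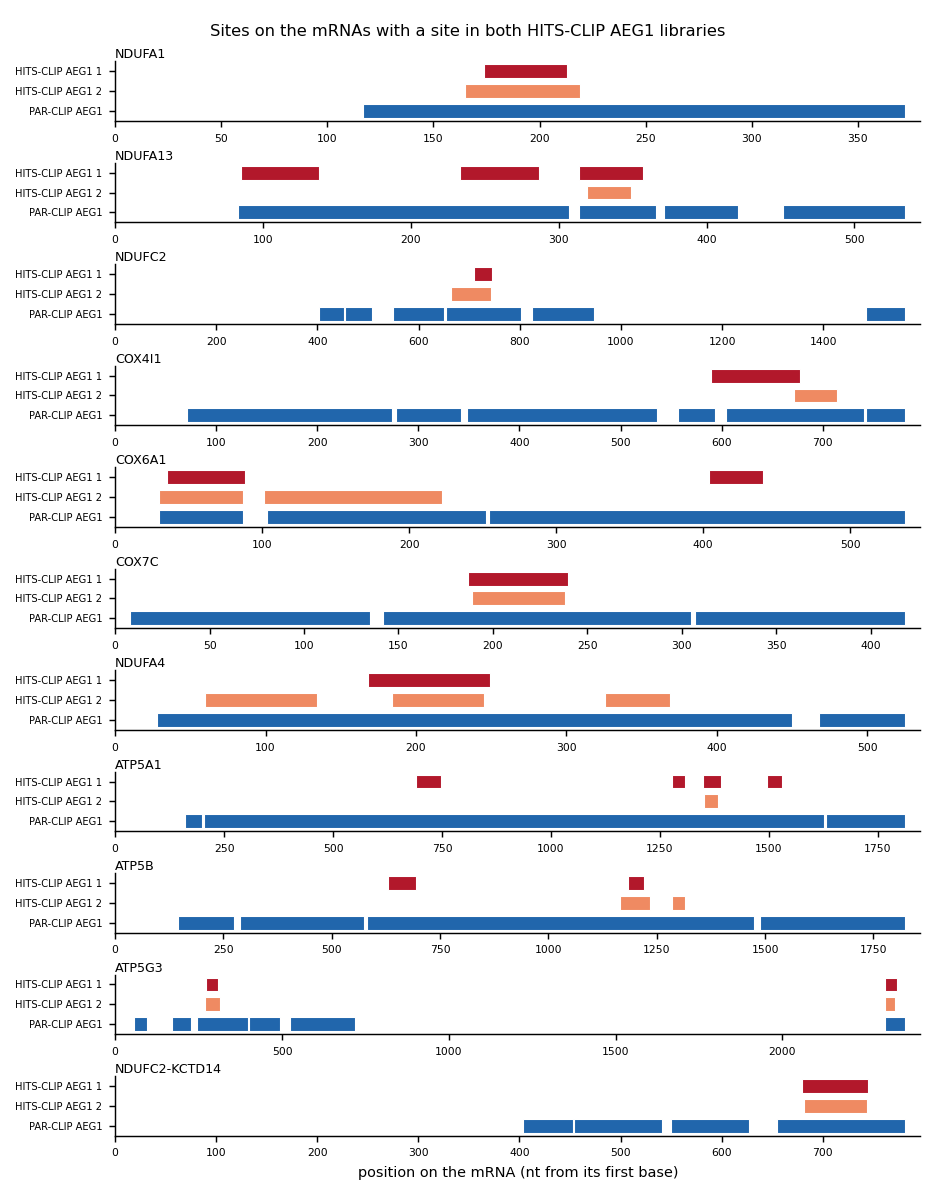
Positions of the sites (coloured bars, nt from the first base of the mRNA) on the 11 mRNAs with a site in both HITS-CLIP AEG1 libraries, in replicate 1, replicate 2 and PAR-CLIP AEG1. On each mRNA at least 1 site of replicate 1 overlaps 1 of replicate 2, and each HITS-CLIP site shown overlaps a PAR-CLIP bar at least in part.

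On all 11 mRNAs at least 1 pair of sites overlapped between the replicates, by 6 to 63 nt. Of the 30 replicate 1 sites on respiratory chain mRNAs, 12 (interval 22.7 to 59.4%) shared 1 nt or more with a site of replicate 2, and of all 6378 replicate 1 sites 63.2% did. In the other direction it was 12 of 19 (63.2%, 38.4 to 83.7), against 71.3% of all sites. Among genes present in both libraries the share was 12 of 19 replicate 1 sites (63.2%), against 70.1% over all such genes. The remaining 11 replicate 1 sites lay on the 10 genes absent from replicate 2. For position against PAR-CLIP AEG1, 48 of 49 HITS-CLIP sites overlapped (98.0%, 89.1 to 99.9), and 90.3% of all HITS-CLIP sites did. PAR-CLIP sites covered a median of 85.3% of the reach of members in both replicates and 64.6% for those in 1. Over all genes these medians were 61.0% and 36.1%. The overlap is thus partly built in, and the share due to cover alone was not computed.

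HITS-CLIP AEG1 sites on these mRNAs were narrow, with widths of 24 to 89 nt in replicate 1 and 30 to 121 nt in replicate 2 and medians of 47 and 49 nt, close to the 51 and 52 nt over all sites. Of the 49, 1 was 25 nt wide or less, on COX6C, against 6.80% and 7.01% of all sites in replicates 1 and 2. PAR-CLIP AEG1 sites had widths of 29 to 1425 nt and a median of 81 nt, against 73 nt over all. Along the mRNA, the middles of the HITS-CLIP sites lay at a median of 51.6% of the way to the furthest PAR-CLIP end (quartiles 37.3 and 75.4), against 40.3% over all genes (22.9 and 61.9). Coding sequence boundaries were not used here, so positions are not tied to coding or untranslated parts.

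PAR-CLIP AEG1 covered these short mRNAs densely. The number of sites was low, with a median of 3 per gene (range 1 to 18), against 5 over all genes, and 10 members had 1 site. Per 1000 nt of reach the order turned, with a median of 5.19 sites against 2.92. Sites covered a median of 60.7% of the nt up to the furthest end, against 22.6% over all genes, and 15 of 91 members reached 80% or more, against 418 of 8009 genes. Reach is itself set by these sites, so the ratios are partly built in. Among all genes that ended within 1000 nt the medians were 26.2% and 3.43 sites per 1000 nt, and for the 65 members in that range 61.1% and 5.88.

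Subunits were covered more than assembly factors. The 12 assembly factors had a median of 18.1% covered and 2.30 sites per 1000 nt, and the 76 subunits 61.8% and 5.67. Both ratios divide by the furthest end, whose median was 1052.5 nt for the assembly factors and 669.5 nt for the subunits. The 2 groups were not compared at like reach. COX15, needed for haem A synthesis, had 9 sites over 762 of 4221 nt, and ATP5SL, now DMAC2, a complex I assembly factor, 5 over 312 of 1230 nt. NDUFAF1, another complex I factor, had a single site of 38 nt. COX17, a copper chaperone for complex IV, was the most covered of the whole set, with 2 sites over 374 of 385 nt (97.1%), and COX16 had 4 sites over 481 of 549 nt. COX7C had 401 of 418 nt covered and was the most covered of those with sites in both HITS-CLIP libraries. This contrast was seen in 1 library and was not tested.

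Members with HITS-CLIP sites were also more covered in PAR-CLIP. The median cover was 85.3% for the 11 with sites in both HITS-CLIP AEG1 libraries, 64.6% for the 13 with sites in 1 and 55.1% for the 67 with none. The same order held over all genes, at 61.0%, 36.1% and 17.8%, so it was not limited to the respiratory chain. It also held among all genes that ended within 1000 nt, at 73.0%, 52.1% and 22.8%. The widest PAR-CLIP site had medians of 224, 216 and 126 nt in the 3 sets of members. RNA abundance was not measured in these files, and its part in the order was not tested.

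**Figure D4:**
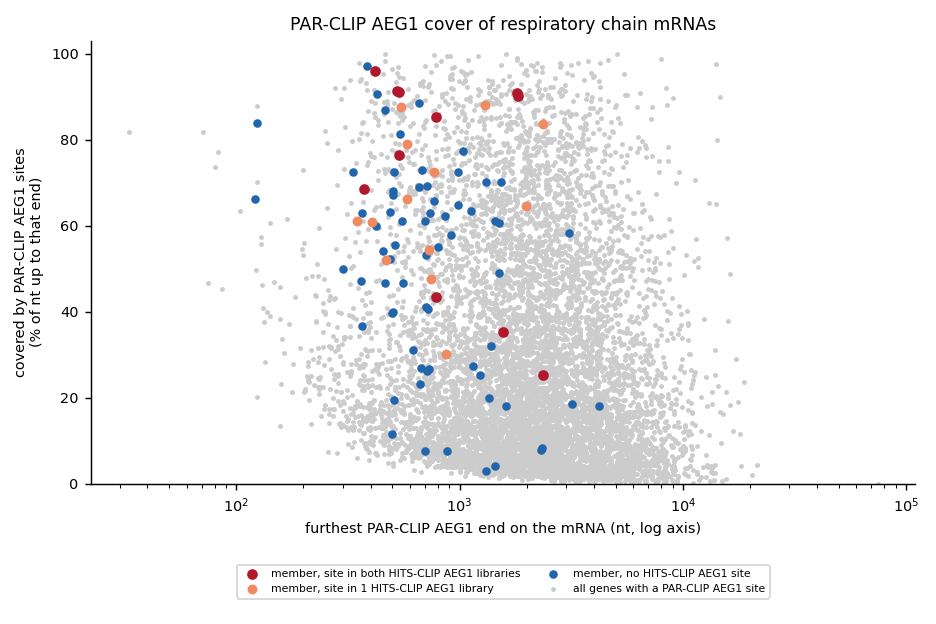
Share of nt covered by PAR-CLIP AEG1 sites (%, up to the furthest site end) against the position of that end (nt, log axis) for every gene with a PAR-CLIP AEG1 site (grey) and the 91 respiratory chain genes, coloured by the number of HITS-CLIP AEG1 libraries with a site. The respiratory chain genes lie left of most genes, with a median end of 708 nt against 2053 nt and a median cover of 60.7% against 22.6%.

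The authors' scores can be compared on the same mRNA, and there HITS-CLIP AEG1 stood below PAR-CLIP AEG1 on respiratory chain mRNAs. The highest HITS-CLIP score was below the highest PAR-CLIP score on all 24 members with a HITS-CLIP site. This was the usual direction, found on 11 of 11 members in both replicates and on 1010 of 1244 genes at large. The difference, the mean of both HITS-CLIP libraries minus PAR-CLIP, had a median of -3.01 log2 units over the 11 members (quartiles -3.69 and -2.31), against -1.66 over the 1244 genes with sites in both and in PAR-CLIP (-2.62 and -0.71). All 11 members lay below the median of all genes, with NDUFC2 and its readthrough, which share sequence, counted as 2 of them. The trait was shared with other groups, at -2.68 for 43 cytosolic ribosomal protein mRNAs, -2.32 for 6 of the V-ATPase and -1.81 for 2 of the mitochondrial ribosome. Among genes that ended within 1000 nt, 7 members had a median of -2.41, against -2.77 for 39 cytosolic ribosomal protein mRNAs and -1.59 for all genes in that range. The replicates' own highest scores differed by a median of 0.58 on these mRNAs, at most 1.00, and by 0.50 over all genes.

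The lowest of these differences was on ATP5A1, where the top scores were 3.99 and 3.16 in HITS-CLIP AEG1, against 9.55 in PAR-CLIP AEG1, a difference of -5.97. ATP5B had 4.53 and 5.42 in HITS-CLIP, against 9.12 in PAR-CLIP, a difference of -4.15, and ATP5G3 3.60 and 3.02, against 7.10, a difference of -3.80. The highest was on COX7C, with 5.02 in each HITS-CLIP library and 6.80 in PAR-CLIP, a difference of -1.78. COX6A1 had 6.05 and 5.53, against 7.81, and COX4I1 1.79 and 2.29, against 4.25. The complex V mRNAs thus stood lowest and the complex IV mRNAs COX7C, COX6A1 and COX4I1 highest among the 11.

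Width of the PAR-CLIP site moved with this difference. On ATP5A1 the highest-scoring PAR-CLIP site ran from nt 204 to 1628 (1425 nt) and on ATP5B the widest was 894 nt. Over all genes whose widest PAR-CLIP site was at most 300 nt the median difference was -1.06, against -2.39 for wider ones. For the 8 members with sites of at most 300 nt it was -2.50, and for the 3 others -4.15. Within each range members and genes at large were not matched by width, and the part of width in the difference was not tested. No source used here says whether scores were scaled by library; a constant for each library would shift all genes alike.

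**Figure D5:**
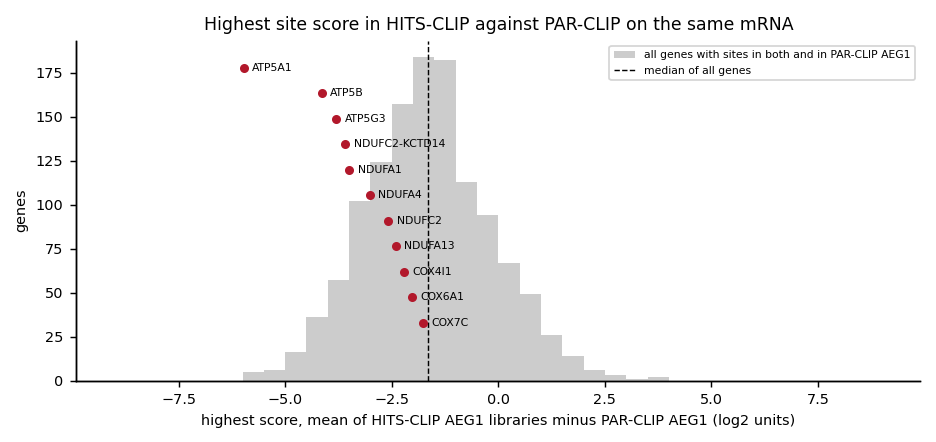
Highest site score in HITS-CLIP AEG1 (mean of both libraries) minus that in PAR-CLIP AEG1 on the same mRNA, in log2 units: grey bars count the 1244 genes with sites in both HITS-CLIP libraries and in PAR-CLIP, red points mark the 11 respiratory chain genes (their height only separates the labels). All 11 lie between -5.97 and -1.78, left of the median of all genes at -1.66.

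Other gene groups give a frame for these counts. Mitochondrial ribosomal protein mRNAs, also short and also for imported proteins, had 2 of 71 genes in both HITS-CLIP AEG1 libraries (2.82%, interval 0.343 to 9.81), below the 12.1% of the respiratory chain but with overlapping intervals. In either library they had 3 of 71 (4.23%), against 24 of 91 here (26.4%) and 27.3% of all genes. Their median PAR-CLIP cover was 30.3%, against 60.7% here, at a like reach of 759 nt. Cytosolic ribosomal protein mRNAs, with a median reach of 605 nt, had 43 of 88 in both (48.9%, 38.1 to 59.8) and a median cover of 84.9%. The V-ATPase, a rotary ATPase of endomembranes that resembles ATP synthase, had 6 of 17 (35.3%, 14.2 to 61.7), against 3 of 15 for ATP synthase. These differences were not tested, because the groups were chosen with results of these data known.

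Further genes of the pathway, from a list outside the prefixes, were recovered in part. Of 43 genes, 37 had a row, which itself requires a site in some library. All 37 had a PAR-CLIP AEG1 site (median 4, range 1 to 31), which is thus largely built in. Of all 8204 genes with a row, 97.6% had such a site, 16.1% a HITS-CLIP AEG1 site in both replicates and 27.3% in either. Among the 43, 2 were found in both HITS-CLIP AEG1 replicates, 6 in either and none in a control (1.76% of all genes). The 2 were LRPPRC, an RNA-binding protein that stabilises mitochondrial mRNAs, with 3 and 1 HITS-CLIP and 31 PAR-CLIP sites, and SLC25A5, an ADP/ATP carrier of the inner membrane, with 1 and 1 and 3. OXA1L, which inserts proteins into the inner membrane, had 1 site in replicate 2, and SLC25A6, another carrier, 1 in replicate 1, as did the assembly factors BCS1L and ACAD9. CYC1, the cytochrome subunit of complex III, and CYCS, cytochrome c, had 9 and 8 PAR-CLIP sites and none in HITS-CLIP.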

How the data were processed

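The deposited files, 1 per library and without headers, give for every site its RefSeq mRNA, gene symbol, bounds and score. The authors' deposited score is read as log2 from its values: in 61 of 81 members with several PAR-CLIP scores, some pair differed by the log2 of a ratio of whole numbers up to 8 (within 2e-05). Per the submitters' processing notes Bowtie was used; no source used here gives its version, the site caller, the threshold or the use of controls. Starts were taken as 0-based and are printed 1-based.

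Members were found by prefix in the symbol column, and all 91 matched RefSeq (GRCh38.p14) by accession, used for names alone. The members and lists were chosen with earlier results of these data known, and roles were completed after the members were seen. Genes named are those with a HITS-CLIP or control site, and per complex the 3 with most PAR-CLIP sites and the longest covered; ATP5G1, ATP5G2, SDHD, COX17, NDUFAF1 and COX4NB were named after their values were seen. 1 gene that the rule names is not reported here by name and stays in the counts. Sites were counted as shared at an overlap of 1 nt or more. No count model was run, since no reads were at hand, and no site sequences are printed, since transcript sequences were not used here. Overlap and cover code was tested on simulated data. Python 3.11.15, pandas 2.3.3 and SciPy 1.17.1 were used.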

Additional observations from a re-analysis of the deposited data

How the results depend on the processing

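Of 40 alternatives, 32 were counted as the same, 8 as moved and none as reversed. For the HITS-CLIP AEG1 minus control difference, the same meant only that its sign was kept, also where it fell from 24 to 1.5 sites. Other counts had to stay within a factor of 1.5, and shares within the interval of the reported value. Only the differences from controls could reverse, and some alternatives left the value unchanged by construction. The comparison of the share in both HITS-CLIP libraries with its background did turn, from 12.1% of members against 16.1% of genes with a row to 9.17% (9.09% with synonyms) of prefix-matching RefSeq genes against 6.57% of protein-coding genes. Restricting to sites above the median PAR-CLIP score, which sets scores of different mRNAs against each other, left a mean of 1.5 more HITS-CLIP AEG1 than control sites (24 reported), 123 more PAR-CLIP AEG1 than control sites (372 reported), 51 genes with a PAR-CLIP site (91 reported) and 0 genes in both HITS-CLIP libraries (11 reported). The HITS-CLIP count was 24 genes in either library and 3 with at least 2 sites in each; leaving out 1 replicate gave 14 to 21 genes. The overlap share was 63.2% counted from replicate 2 (12 of 30 sites counted from replicate 1), and the share of HITS-CLIP sites on PAR-CLIP sites was 96.7% to 100% in single replicates. The paired form with the replicate number as a block gave the same mean difference of 24 sites (exact sign-flip test, p = 0.5, the smallest 2 pairs allow), and leaving out each library in turn gave 18.5 to 29.5. Without near-identical copies 8 genes were in both libraries. The alternative set of genes by protein length was not run, since no protein table was used here. Without read counts, depth sets no limit that can be stated; the number of libraries does.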

Other observations

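The current RefSeq symbols of 109 nuclear genes match the same prefixes, and 21 of these had no row under them. Of the 21, 8 were in the lists under an older symbol, each with 1 to 5 PAR-CLIP AEG1 sites and none in any other library: ATP5IF1, the ATP synthase inhibitor, had 2, ATP5MJ 5, ATP5MK 3, COX20 4, NDUFAF5 3, SDHAF3 2, and the assembly factors NDUFAF6 and NDUFAF8 1 each. The 13 others had no row in the lists used here. Of these, 6 were COX4I2, COX6A2, COX6B2, COX7A1, COX7B2 and COX8C, alternative complex IV subunits known from muscle, lung or testis, and 7 were not such forms: ATP5F1E, a small ATP synthase subunit, and the assembly factors COX10, COX14, NDUFAF2, NDUFAF3, NDUFAF7 and SDHAF4. These genes were looked up after the values were seen.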
